A study of Danio rerio with 4 samples.

Results

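The comparison described here sets Gata1+ cells of foxo3b morphant zebrafish embryos against Gata1+ cells of control embryos at 48 hours post fertilization (hpf). It rests on 2 of the 4 libraries of the series, 1 control library and 1 foxo3b MO library, joined gene by gene. All embryos carried the gata1:GFP transgene, in which the promoter of the red cell regulator gata1 drives green fluorescent protein, and cells were selected by fluorescence. At the one-cell stage the embryos had received either a standard morpholino (MO), the control, or a morpholino against foxo3b, a synthetic antisense oligonucleotide that blocks a transcript without changing the gene. The other 2 libraries are the same pair at 24 hpf and are given beside the 48 hpf values. The labels do not say how many embryos were pooled, nor whether the morpholino blocks splicing or translation. Of 14417 genes in the files, 11971 had a mean of at least 1 FPKM (fragments per kilobase of transcript, scaled to the number of mapped fragments) over the 4 libraries. Of these, 13 rows were classed by name and gene type as RNAs without poly(A) tails and kept apart. The other 11958 form the comparison and are called poly(A) genes, though the tail was not checked row by row. They include 12 short rows beside histone genes, described below. With 1 library a side there is no replicate error and no test, and each difference below describes these libraries.

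Foxo3b belongs to the FOXO family of forkhead transcription factors. When growth signalling is low, FOXO proteins stay in the nucleus and activate genes for antioxidant defence, autophagy, cell cycle arrest and cell death, and in mouse Foxo3 takes part in red cell maturation. In zebrafish, primitive red cells arise from the lateral mesoderm and enter circulation around the first day, where they fill with embryonic globin. By the second day the embryo is also forming a functioning retina and lens, tissue macrophages and neutrophils, and it hatches with proteases from a transient gland.

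The transcript of foxo3b, the targeted gene, had 38.1 FPKM in the 48 hpf control and 50.3 FPKM in the 48 hpf morphant library, after 6.40 and 46.5 FPKM a day earlier. A morpholino can block translation and leave the transcript, so this level does not check the labels. The red cell label was checked against its markers. In the control library at 48 hpf the 8 measured embryonic globin rows summed to 35230 FPKM, 1.47% of that library's total, and in the morphant library to 14260 FPKM, 0.947%. The transcript of gata1a, whose promoter drives the reporter, was at 2.49 FPKM in control and 4.33 FPKM in morphant. Transcripts that define other tissues were present in both libraries: lens crystallins summed to 12897 FPKM in control and 6305 FPKM in morphant, neuron genes to 3354 and 2704 FPKM, and hatching gland genes to 2271 and 5070 FPKM. Longer lists summed to more than the globins in both libraries. Muscle genes summed to 77065 FPKM in control and 66523 FPKM in morphant, and epidermal genes to 45226 and 34354 FPKM. Liver, yolk and lipid carrier genes summed to 219226 and 64520 FPKM. The globins were thus not the largest of these sums in either library. In bulk libraries, fewer cells of a type and less RNA per cell cannot be told apart, and this holds for every list below. The libraries differed as a whole too: total FPKM was 2402300 in control and 1505450 in morphant, genes listed at 0 numbered 748 and 1151, and cytosolic ribosomal protein genes took 44.4% and 31.6% of the total. The part of library depth in the genes listed at 0 was not tested.

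The comparison asks what changed in gata1-reporter cells once foxo3b was targeted. Fold changes are log2 of (FPKM + 1) in morphant over (FPKM + 1) in control. Over the 11958 genes the median was -0.02, and 94.5% of genes lay within 2-fold. Past 2-fold, 222 genes were higher in the morphant library, which is 1.86% of those compared, and 438 were lower, which is 3.66%. These shares are the background for every list. The 5th and 95th percentiles were -0.89 and 0.71. Scaling both libraries to equal total FPKM moves the all-gene median up by 0.61, and the split becomes 2008 higher and 131 lower. With equal totals that leave out ribosomal proteins and RNAs without poly(A) tails the median moves by 0.38, and the split is 830 higher and 203 lower. Each list is therefore read against the all-gene median. That median was itself 0.60 under the first of these scalings and 0.37 under the second. A list median said below to turn positive under them can thus still lie below that of all genes.

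**Figure D1:**
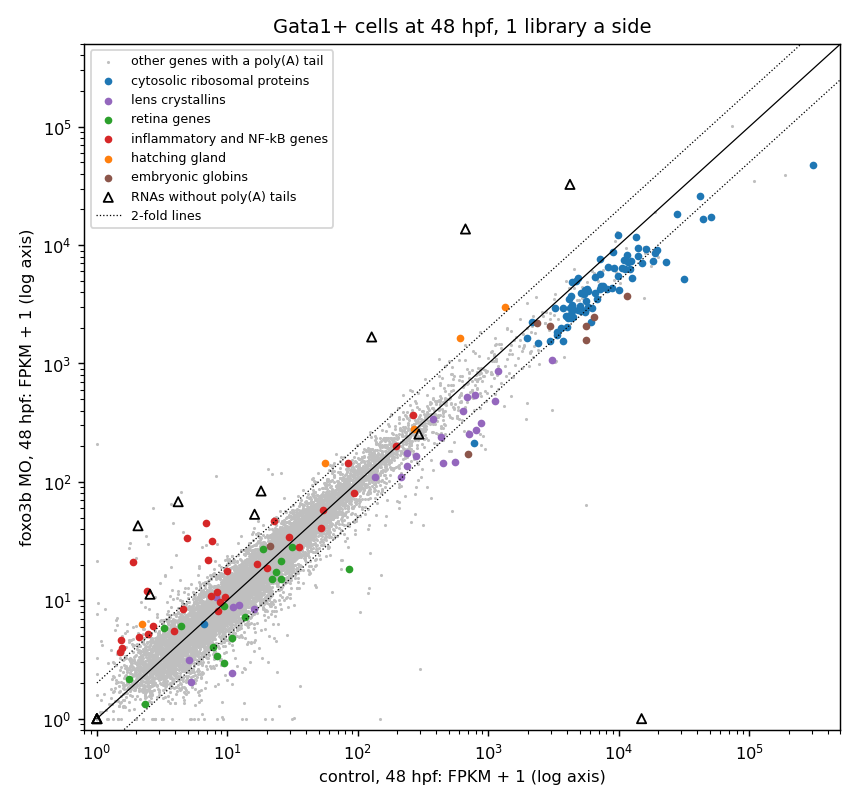
Each point is a gene with a mean of at least 1 FPKM over the 4 libraries, with FPKM + 1 of the control library at 48 hpf on the x axis and of the foxo3b MO library on the y axis, both on log axes. Coloured points are 6 gene lists, triangles are RNAs without poly(A) tails and dotted lines mark 2-fold. Inflammatory and hatching gland genes lie on or above the diagonal or close to it, while crystallins and most ribosomal proteins lie below it, and 3 triangles with more than 100 FPKM in control stand far above it.

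Genes of inflammatory signalling formed the list of more than 5 members with the highest median. Of 31 measured members, 13 were past 2-fold higher in the morphant library and none was past 2-fold lower, and the list's median log2 fold was 0.79. Over the 29 members with a locus of their own the median was 0.54, with 11 past 2-fold higher and none lower. The NF-kB pathway, whose targets make up much of this list, turns signals of infection and damage into cytokine and chemokine transcription. At 24 hpf, in 2 other libraries, the same list had a median of 0.06, with 1 member past 2-fold in each direction, where 3.09% of all genes were higher and 1.89% lower.

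Among the chemokines, which draw leukocytes to a site, the row zgc:195195 (ccl20a.3) was at 0.882 FPKM in control and 20.2 FPKM in morphant, a log2 fold of 3.49. At 24 hpf it was at 7.25 and 16.5 FPKM. The row cxcl-c1c (cxcl18b) went from 6.06 FPKM in control to 20.9 FPKM in morphant, while ccl-c5a (ccl19a.1) stood at 0.535 and 3.65 FPKM. The homeostatic chemokines cxcl12a and cxcl12b, which guide migrating progenitors, were at 51.1 and 28.4 FPKM in control and at 39.9 and 32.9 FPKM in morphant. The rows zgc:195195, cxcl-c1c and ccl-c5a were thus past 2-fold higher, and the pair of cxcl12 genes stayed within 2-fold.

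The cytokine il1b, on chromosome 10 (Zv9 46394747 to 46400871), was at 1.43 FPKM in control and 10.9 FPKM in morphant. Tumour necrosis factor tnfb was at 0.547 and 2.93 FPKM. The macrophage growth factor row si:ch211-239j19.3 (il34), which shares its locus with another row, was at 0.496 and 2.68 FPKM. These 3 cytokines were at or below 1.43 FPKM in control, so their folds rest on low values.

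Effectors gave the larger levels. The matrix protease mmp9, on chromosome 8 (Zv9 25134467 to 25148890), was at 5.86 FPKM in control and 44.3 FPKM in morphant, against 14.4 and 8.65 FPKM at 24 hpf. The itaconate enzyme paralog irg1l was at 6.59 FPKM in control and 30.9 FPKM in morphant, and its relative irg1 (acod1) at 1.1 and 3.94 FPKM. At 24 hpf irg1l had been at 133 FPKM in control and 146 FPKM in morphant, so at 48 hpf both libraries were below both 24 hpf libraries. The iron hormone hamp2 (hamp), induced by inflammation in mammals, was at 3.91 and 32.5 FPKM, on a locus it shares with another row. Prostaglandin synthase ptgs2b was at 1.46 FPKM in control and 4.15 FPKM in morphant, while its paralog ptgs2a was at 19 and 17.6 FPKM.

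The pathway's own subunits and inhibitors moved less. The transcription factor subunits rela and nfkb2 were at 2.93 and 7.81 FPKM in control and at 4.53 and 8.66 FPKM in morphant. The inhibitors nfkbiaa, nfkbiab and nfkbie, which are also targets of the pathway, had log2 folds of 0.83, 0.10 and 0.50. The STAT3 feedback inhibitor socs3a went from 3.59 to 7.41 FPKM, a log2 fold of 0.87, and its paralog socs3b from 8.66 to 9.66 FPKM. Of the complement genes, cfb was at 82.8 FPKM in control and 144 FPKM in morphant, c3a at 264 and 366 FPKM, and c9 at 194 and 201 FPKM. None of these signalling components or complement genes passed 2-fold.

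Myeloid marker genes overlapped this list in part. Of 32 measured markers, 7 were past 2-fold higher and 1 lower, with a median of 0.37, and 4 of the 7 (il1b, mmp9, tnfb and cebpb) are also inflammatory members. The lineage regulators differed: spi1 (spi1b) was at 2.86 FPKM in control and 5.87 FPKM in morphant, a log2 fold of 0.83. The regulator cebpa was at 13.8 and 15.5 FPKM, and csf1ra, the macrophage growth factor receptor, at 9.65 and 6.90 FPKM. Neutrophil granule genes did not move one way. Myeloperoxidase mpx was at 23.1 and 34.1 FPKM and the protease npsn at 54.7 and 87.8 FPKM, but lysozyme lyz was at 382 FPKM in control and 214 FPKM in morphant. The marker past 2-fold lower was LOC100151049 (laptm5), at 255 and 44.6 FPKM. The summed FPKM of all 38 myeloid rows was 1091 in control and 1026 in morphant, with 2 and 1 rows listed at 0. Whether more myeloid cells in the sort contributed to the inflammatory genes was not tested.

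Interferon response genes had 4 of 19 measured members past 2-fold higher and none lower, with a median of 0.20. The ubiquitin-like protein isg15 had a log2 fold of 3.50 at 48 hpf and 3.52 at 24 hpf, each time from near 1 FPKM in control. The antiviral GTPase mxc was at 0.982 FPKM in control and 5.08 FPKM in morphant, and the regulator irf1b at 0.565 and 3.97 FPKM. The signal transducer stat1a was at 9.81 and 7.14 FPKM. Of 24 immediate early genes, which answer growth and stress signals within minutes, 3 were past 2-fold higher and none lower, with a median of 0.14. The AP-1 subunit fosl1 was at 0.423 FPKM in control and 6.08 FPKM in morphant, junba at 1.67 and 5.04 FPKM, and the stress factor atf3 at 8.86 and 19 FPKM. The founding members fos, jun and egr1 had log2 folds of 0.03, 0.21 and 0.33.

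Proteases of the hatching gland, the transient organ whose enzymes soften the egg envelope, were higher in the morphant library. Of 5 measured genes, 4 were past 2-fold higher and none lower, with a median of 1.36, against 0.26 at 24 hpf with none past 2-fold. The hatching enzyme he1a, on chromosome 22 (Zv9 14237420 to 14238862), was at 610 FPKM in control and 1655 FPKM in morphant, and he2, a neighbour on the same chromosome, at 1.22 and 5.30 FPKM. The gland cathepsin ctsl1b was at 55.1 and 143 FPKM. The tetraspanin cd63, which is found in many cell types, was at 270 and 276 FPKM. At 24 hpf ctsl1b had been at 1241 FPKM in control and 1486 FPKM in morphant, far above the 48 hpf levels of either group. As a share of all FPKM the list held 0.0945% in control and 0.337% in morphant.

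Unnamed rows close to ctsl1b on chromosome 12, chosen after their values were seen, had like ratios. MGC174155 was at 415 FPKM in control and 1096 FPKM in morphant, zgc:174855 at 251 and 598 FPKM, MGC174152 at 222 and 545 FPKM, and MGC174857 at 67.5 and 172 FPKM. Their log2 folds lay between 1.25 and 1.4. The gene table gives them no function.

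The eye stood out on the lower side. Lens crystallins, the soluble proteins that fill the lens fibre cells, had a median log2 fold of -0.81, with 9 of 25 measured rows past 2-fold lower, none higher and 24 below 0. At 24 hpf the median was -0.91, with 10 rows past 2-fold lower. The median level of these rows at 24 hpf was 2.05 FPKM in control and 0.86 FPKM in morphant, so those folds rest on low values. The gamma crystallin crygm2d10 was at 3100 FPKM in control and 1062 FPKM in morphant, and crygm2d12 at 558 and 145 FPKM. These gamma crystallin rows share 1 locus of 25 rows on chromosome 9 (Zv9 23101756 to 23372825), so their values are not independent and fragments may be split among near-identical copies. Over the 17 crystallins with a locus of their own the median was -0.55, with 2 past 2-fold lower. Of these, the row zgc:136220 (crybgx) was at 9.87 FPKM in control and 1.45 FPKM in morphant and crygm5 at 4.28 and 1.04 FPKM. The beta crystallin cryba4 was at 1185 and 871 FPKM. Alpha crystallin cryaa, a chaperone of the lens, was at 11.2 and 8.19 FPKM. Other lens genes, such as membrane and filament proteins, had a median of -0.16 over 13 genes with none past 2-fold. That median, unlike the crystallins', turns positive under both equal-total scalings.

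Genes of the retina had 4 of 17 measured members past 2-fold lower and none higher. Their median was -0.53, which becomes 0.10 under equal total FPKM, still 0.49 below the all-gene median under that scaling. The bipolar cell homeobox gene vsx1, on chromosome 17 (Zv9 20893555 to 20896226), was at 84.8 FPKM in control and 17.3 FPKM in morphant. The photoreceptor homeobox genes crx and otx5 were at 8.36 and 7.35 FPKM in control and at 1.94 and 2.36 FPKM in morphant. Retinaldehyde binding protein rlbp1a was at 9.84 and 3.84 FPKM. The retinal progenitor gene rx1 was at 2.28 FPKM in control and 4.87 FPKM in morphant, and its paralog rx2 at 3.42 and 5.11 FPKM. The ganglion cell factor atoh7 was at 24.9 and 20.5 FPKM, and pax6a, active throughout the eye, at 30.5 and 26.9 FPKM. The 24 hpf median of the list was 0.17, with no member past 2-fold. The median level of these genes at 24 hpf was 2.595 FPKM in control and 2.938 FPKM in morphant, so those folds rest on low values. Whether the retinal difference is particular to 48 hpf was not tested.

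More retinal genes were found among the lowest log2 folds. They were chosen after their values were seen and describe that end of the distribution only. The cone transducin subunit gnb3a was at 23.7 FPKM in control and 0.29 FPKM in morphant. The photoreceptor nuclear receptor nr2e3 was at 19.6 and 1.99 FPKM, and the homeobox row zgc:193533 (pax10) at 22.8 and 1.48 FPKM. The phototransduction genes sagb, an arrestin, and pde6g, a phosphodiesterase subunit, were at 14.1 and 42.4 FPKM in control and at 3.34 and 15.9 FPKM in morphant. The recoverin rows zgc:114180 (rcvrna) and rcv1 (rcvrn2) were at 11.8 and 9.0 FPKM in control and at 1.47 and 1.13 FPKM in morphant. At 24 hpf all of these except the recoverin row zgc:114180, at 2.71 FPKM in morphant, were below 2 FPKM in both libraries.

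**Figure D2:**
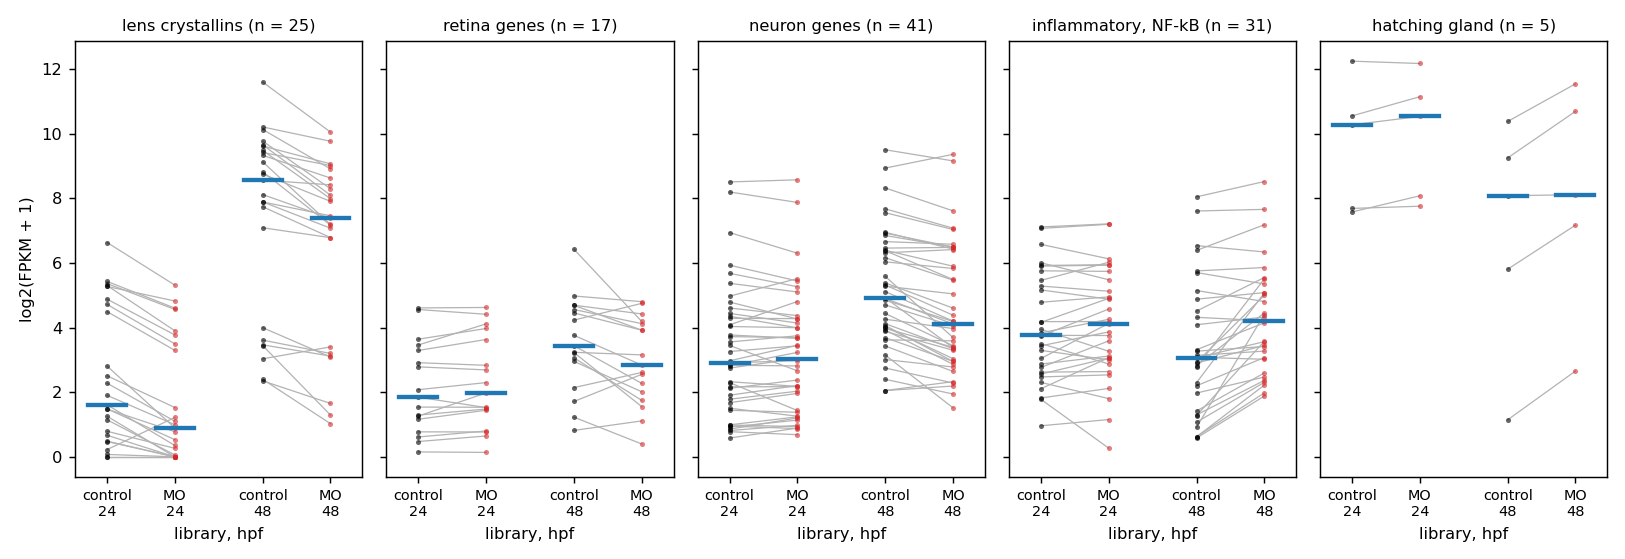
Every point is a measured member of a list, on the log2(FPKM + 1) scale, in the control and foxo3b MO (MO) libraries at 24 and 48 hpf, with lines joining the same gene within a stage and blue bars at the median. Between the 48 hpf libraries the median level of crystallins went from 377 FPKM in control to 165 FPKM in morphant, that of retina genes from 9.84 to 6.16 FPKM and that of neuron genes from 29.3 to 16.3 FPKM, while that of inflammatory genes went from 7.38 to 17.6 FPKM.

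Neuron genes were lower as a list, with 36 of 41 measured members below 0 and a median of -0.58. This median sits at 0.04 under equal total FPKM, still below the all-gene median of 0.60 under that scaling. Past 2-fold, 5 were lower and none higher. The G protein subunit gng13b, on chromosome 3 (Zv9 35674507 to 35687511), was at 47.0 FPKM in control and 11.9 FPKM in morphant. The ganglion cell and sensory factor pou4f2 was at 7.87 and 1.86 FPKM. Of the synaptic vesicle release genes, snap25b was at 15.7 and 6.75 FPKM and syn2a, on a locus of 14 rows, at 14.2 and 6.29 FPKM. Lower but within 2-fold were the glutamate transporter slc17a6b at 15 and 7.23 FPKM and the GABA-producing enzyme gad2 at 16.4 and 9.20 FPKM. The neuronal RNA-binding protein elavl3 was at 78.7 and 84.3 FPKM and the growth cone protein gap43 at 87.1 and 88.5 FPKM. At 24 hpf the list's median was -0.02 with no member past 2-fold.

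Neural progenitor and glia genes had a median of 0.23 over 10 members, with none past 2-fold higher and 1 lower. The progenitor factor sox3 was at 57.2 FPKM in control and 103 FPKM in morphant, sox19a at 37.9 and 56.9 FPKM, and the myelin protein plp1a at 62.7 and 123 FPKM. The radial glia lipid carrier fabp7a was at 2457 and 999 FPKM, and sox2 at 27.3 and 26.5 FPKM. Of these 10 genes 6 were above 0, each within 2-fold.

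Endoderm and yolk products had lower values too. Of 38 measured liver, yolk and lipid carrier genes, 5 were past 2-fold lower and none higher, with a median of -0.22 that turns positive under both equal-total scalings. The intestinal and yolk fatty acid binding protein fabp1b.1, the second most abundant row of the control library, was at 187400 FPKM in control and 39376 FPKM in morphant. The liver fatty acid binding protein fabp10a was at 21.1 FPKM in control and listed at 0 in morphant. The cellular retinol carriers rbp2a and rbp2b were at 199 and 279 FPKM in control and at 67.3 and 90.2 FPKM in morphant. The fibrinogen chains fga and fgb, made in the liver, were at 122 and 187 FPKM in control and at 116 and 187 FPKM in morphant. Not all hepatic transcripts were lower, then.

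Of 7 genes for pancreatic hormones and their regulator pdx1, 1 was past 2-fold lower and none higher, with a median of -0.65. Insulin (ins) was at 62.7 FPKM in control and 10.7 FPKM in morphant, whereas the beta cell regulator pdx1 was at 3.33 and 1.76 FPKM and glucagon gcgb at 14.6 and 11.1 FPKM. Digestive enzymes went both ways at low levels, trypsin (try) from 5.05 to 0.593 FPKM and elastase ela2 from 0.0962 to 3.21 FPKM.

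Among 28 notochord and cartilage genes, 4 were past 2-fold lower and 1 higher, with a median of 0.10. The 1 higher was the row zgc:194158 (mia), at 47.0 FPKM in control and 98.1 FPKM in morphant. Genes of differentiating cartilage and bone were among those lower. The cartilage matrix protein matn1 was at 5.44 FPKM in control and 0.0907 FPKM in morphant, and col10a1, of hypertrophic cartilage and bone, at 27.5 and 4.06 FPKM. The collagen row zgc:194937 (col9a1a) was at 19.2 and 7.04 FPKM. The notochord regulator ntla (tbxta) was at 2.22 and 4.76 FPKM, and sox9a, the cartilage regulator, at 15.9 and 17.0 FPKM. Its paralog sox9b was at 13.4 FPKM in control and 25.9 FPKM in morphant. Actinodin and4, a protein of the fin fold, was at 1980 FPKM in control and 459 FPKM in morphant, on a locus under 1 kb.

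The embryonic globins, the main protein of these red cells, were lower except 1 row. Of 8 rows, 5 were past 2-fold lower and none higher, with a median of -1.42. At 24 hpf the median was -1.78, with 7 rows past 2-fold lower. The alpha globin hbae3, with a locus of its own, was at 11506 FPKM in control and 3710 FPKM in morphant, and the beta globin hbbe2 at 697 and 170 FPKM. The beta globin hbbe3 was at 2340 and 2207 FPKM, after 9075 and 1815 FPKM at 24 hpf. The row zgc:163057 (hbae4), the exception, was at 20.1 and 27.9 FPKM. Of these rows, 4 share 1 locus, and over the other 4 the median was -0.86.

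The remaining red cell machinery showed no such list-wide difference. Of 19 heme synthesis genes, 1 was past 2-fold lower, the heme oxygenase row si:dkey-44g23.7 (hmox2a) at 30.0 and 11.8 FPKM, which degrades heme. Its inducible relative hmox1 was at 81.0 FPKM in control and 130 FPKM in morphant. Of 17 red cell membrane and gas transport genes, 1 was past 2-fold higher, the ammonia channel rhcga at 1.53 and 4.33 FPKM. In this list 9 genes were above 0 and 8 below. Within 2-fold, rhag was at 139 and 77.9 FPKM and cahz at 223 and 156 FPKM. The row ank1 (ank1a) was at 111 and 163 FPKM, and slc4a1a at 63.2 and 63.4 FPKM. Of 21 erythroid and blood stem cell factors, 1 was past 2-fold lower, the small Maf row mafg1 (mafga) at 18.4 and 4.76 FPKM. The medians of these 3 lists were -0.06, 0.01 and 0.15, and the first turns positive under both equal-total scalings.

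Cytosolic ribosomal proteins, whose transcripts fill much of these libraries, had 17 of 82 members past 2-fold lower, none higher and 76 below 0, with a median of -0.74. At 24 hpf 36 were past 2-fold lower and 1 higher, with a median of -0.83. The row zgc:77235 (rpl27a), the most abundant in control, was at 307548 FPKM there and 47268 FPKM in morphant, and took 12.8% and 3.14% of the totals. The large subunit protein rpl37 was at 31661 and 5191 FPKM. Of the small subunit, rps26 was at 6153 and 2228 FPKM. Mitochondrial ribosomal proteins, which build a separate ribosome, had a median of 0.06 over 66 members and none past 2-fold. The medians of ribosomal proteins and embryonic globins stay negative under each scaling tried. At their highest over these scalings they were -0.06 for ribosomal proteins and -0.75 for embryonic globins.

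Respiratory chain genes had 4 of 76 members past 2-fold lower and none higher. Their median, -0.26, turns positive under both equal-total scalings. The complex IV subunit cox7a2 was at 1484 FPKM in control and 535 FPKM in morphant, and the complex I subunit ndufa11 at 648 and 271 FPKM.

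Genes on short loci were past 2-fold more often in both directions. Of 144 genes with a locus of their own under 1 kb, 11.8% were past 2-fold higher and 25% lower, against 1.4% and 2.46% of 5004 genes with a locus of 5 to 20 kb. Of 192 such genes averaging 1000 FPKM or more, 4.69% were higher and 14.6% lower, with a median of -0.42. Of 4413 genes averaging 1 to 10 FPKM, 1.86% were higher and 5.05% lower. Of 5379 genes averaging 10 to 100 FPKM, 1.34% were higher and 1.71% lower. The part of locus width and level in the folds of the lists was not tested.

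**Figure D3:**
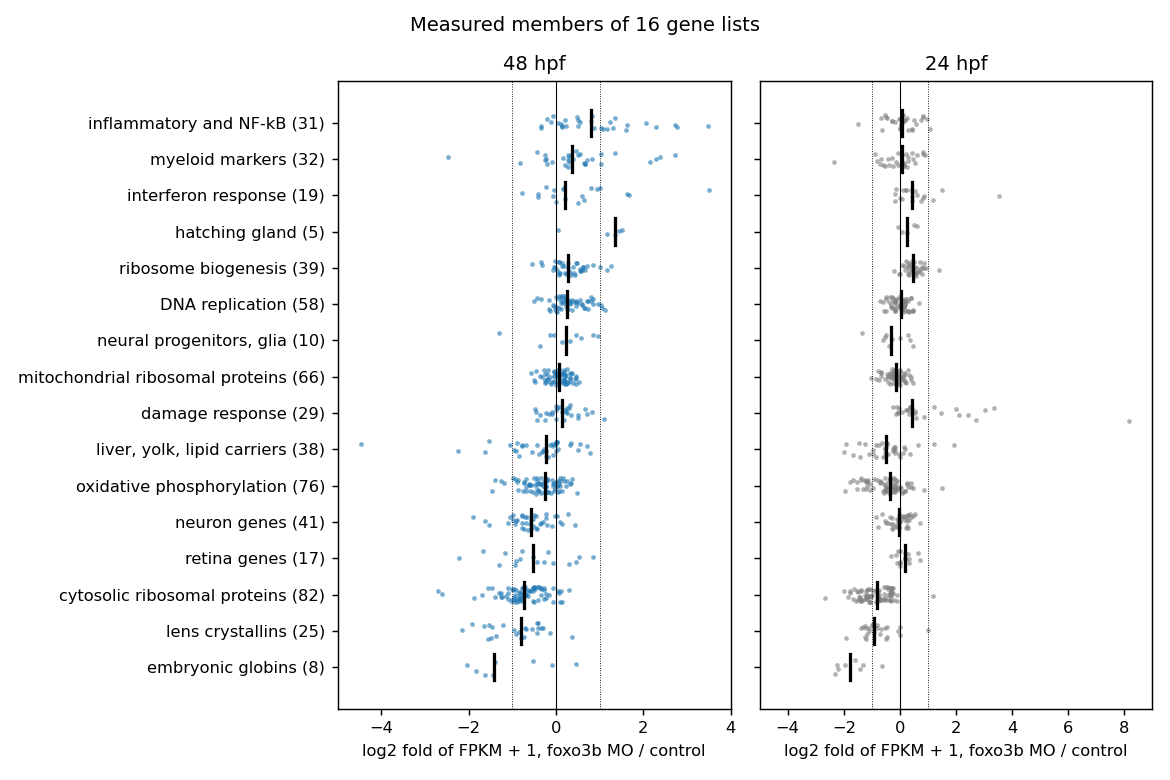
Each point is a measured member of 1 of 16 gene lists, with its log2 fold of FPKM + 1, foxo3b MO over control, at 48 hpf on the left and 24 hpf on the right; black bars are list medians, dotted lines mark 2-fold and the number of members stands beside each name. The inflammatory list has its median at 0.79 at 48 hpf and 0.06 at 24 hpf, and neuron genes at -0.58 and -0.02, while ribosomal proteins have -0.74 and -0.83.

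Genes of growth and division had slightly higher values. Of 58 DNA replication genes, 3 were past 2-fold higher and none lower, with 47 above 0 and a median of 0.24. The polymerase subunit pole2 was at 9.32 FPKM in control and 21.5 FPKM in morphant, the histone chaperone chaf1b at 5.12 and 11.5 FPKM, and the replication clamp pcna at 521 and 812 FPKM. Mitosis genes had a median of 0.22 over 69 members, with none past 2-fold. Ribosome biogenesis genes had 3 of 39 past 2-fold higher and none lower, with a median of 0.27. Of these, the snoRNA-binding protein nola1 (gar1) was at 44.4 and 107 FPKM and the nucleolar protein nolc1 at 6.31 and 15.5 FPKM. Structural ribosomal proteins and the factors that assemble them thus had medians of opposite sign, -0.74 and 0.27.

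The FOXO genes and their known targets were next compared. Beside foxo3b, whose log2 fold was 0.39 at 48 hpf and 2.68 at 24 hpf, the paralog foxo1b was at 3.97 and 1.3 FPKM, foxo1a at 6.03 and 11.1 FPKM and foxo3a at 12.1 and 10.5 FPKM. Of 41 measured known FOXO targets, 1 was past 2-fold higher and 1 lower, with a median of -0.16 that turns positive under both equal-total scalings. The mitophagy receptor bnip3 was at 5.11 FPKM in control and 0.384 FPKM in morphant. The insulin-like growth factor binding protein igfbp1a, which is also a hypoxia gene, was at 17.6 and 42.6 FPKM. The antioxidant enzymes cat and sod2 were at 33.9 and 77.9 FPKM in control and at 19.3 and 46.6 FPKM in morphant, and the muscle ubiquitin ligase fbxo32 at 3.89 and 1.53 FPKM. The growth arrest genes gadd45aa and gadd45ba were written into the damage response list and not into that of FOXO targets. This placing says nothing about their regulation. They were at 11.4 and 10.3 FPKM in control and at 13.3 and 11.5 FPKM in morphant.

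Of 26 hypoxia response genes, 2 were past 2-fold lower and 1 higher, with a median of -0.13 that turns positive under both equal-total scalings. Besides bnip3 the lower one was the stress gene ndrg1b, at 22.6 FPKM in control and 3.49 FPKM in morphant, whereas the glycolytic enzyme ldha was at 274 and 267 FPKM. Antioxidant and glutathione genes had 2 of 36 past 2-fold lower and 1 higher. The peroxidase gpx4a was at 869 and 421 FPKM and the thioredoxin txn at 467 and 946 FPKM.

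Damage response genes, which arrest the cell cycle or prepare cell death, had 1 of 29 past 2-fold higher and none lower at 48 hpf, with a median of 0.14. That gene was cyclin G1 (ccng1), at 666 FPKM in control and 1433 FPKM in morphant. The ubiquitin ligase mdm2 was at 32.5 and 52.2 FPKM and the death-receptor protease casp8 at 5.63 and 9.87 FPKM. At 24 hpf the list had 9 past 2-fold higher, with a median of 0.42, and mdm2 was at 28.6 and 159 FPKM. At 24 hpf the death gene pmaip1 was listed at 0 in control and at 285 FPKM in morphant, and at 48 hpf it was listed at 0 in both libraries. The difference between the stages was not tested.

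Muscle genes had 3 of 58 past 2-fold higher and 2 lower, with a median of 0.05. Cardiac and skeletal actin actc1b was at 1294 FPKM in control and 3024 FPKM in morphant and the heart myosin light chain myl7 at 97.9 and 204 FPKM, whereas the calcium buffer pvalb4 was at 1546 and 765 FPKM. Endothelial markers, whose cells share a precursor with blood, had none of 26 past 2-fold and a median of -0.14, which turns positive under both equal-total scalings. Hox genes had 2 of 48 past 2-fold lower, a share near the background: hoxb13a was at 17.2 and 4.56 FPKM and hoxa13b at 8.55 and 3.1 FPKM. Clock genes had 24 of 27 members below 0 with none past 2-fold and a median of -0.17, which turns positive under both equal-total scalings.

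RNAs without poly(A) tails are read apart because their level depends on how RNA was selected before sequencing, which the labels do not give. Their share of all FPKM was 0.845% in control and 3.22% in morphant. Most of the control share was the microRNA row mir181b-1, so the pair of shares understates how far the other classes differed. Histone rows summed to 331 FPKM in control and 506 FPKM in morphant. The classes that hold rn7sk and zgc:158463 summed to 667 and 4350 FPKM in control and to 13681 and 34258.5 FPKM in morphant. The 7SK RNA (rn7sk), which holds the elongation factor P-TEFb inactive, lies on chromosome 13 (Zv9 697629 to 697951) and was at 667 FPKM in control and 13681 FPKM in morphant. The RNase P RNA rpph1, which trims transfer RNA precursors, was at 127 and 1675 FPKM. The row zgc:158463, a ribosomal RNA in the gene table, was at 4223 and 32584 FPKM. At 24 hpf rn7sk was at 39.1 and 125 FPKM, rpph1 at 21.0 and 13.7 FPKM and zgc:158463 at 340 and 415 FPKM. Of the 268 microRNA rows, mir181b-1 alone was above 0 in a 48 hpf library, at 14949 FPKM in control and listed at 0 in morphant, and a precursor of this length is poorly measured by FPKM.

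Replication-dependent histone genes, whose messages end in a stem-loop, were higher in 5 of 6 rows past 2-fold. The H2A row zgc:195633 (hist1h2a11) was at 1.07 FPKM in control and 41.6 FPKM in morphant, zgc:173652 (hist1h2a3) at 3.2 and 67.0 FPKM, and the H4 row hist1h4l at 15 and 52.3 FPKM. The exception was hist2h2l, at 293 and 252 FPKM. At 24 hpf the same 5 rows were past 2-fold lower in morphant, zgc:173652 at 11.9 FPKM in control and 2.53 FPKM in morphant. A further 12 short rows with no name beyond a zgc number lie within 600 kb of annotated histone genes, and this set was drawn after values were seen. Of these, 11 were past 2-fold higher, with a median log2 fold of 3.71 at 48 hpf and -0.42 at 24 hpf. They are among the 222 higher genes, which number 211 without them.

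**Figure D4:**
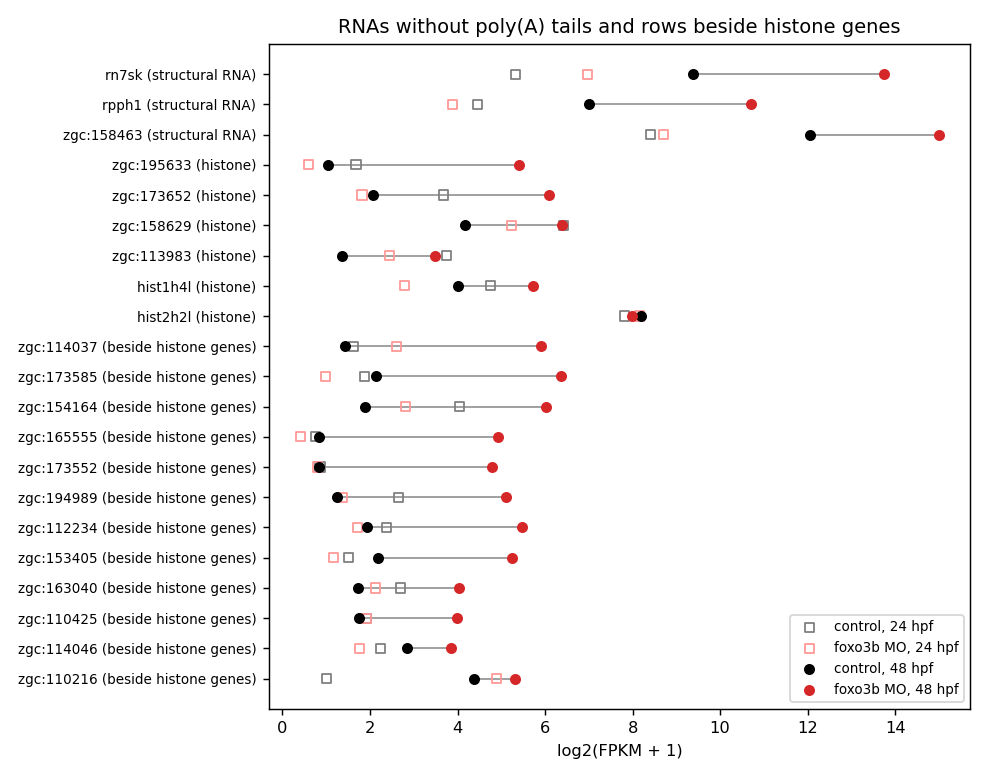
Levels on the log2(FPKM + 1) scale of 3 structural RNAs, 6 histone rows and 12 rows beside histone genes, with circles for 48 hpf and squares for 24 hpf, black or grey for control and red or pink for foxo3b MO. At 48 hpf the foxo3b MO circle lies to the right of the control circle in each row but hist2h2l.

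Among named poly(A) genes above 0 in both 48 hpf libraries and averaging 10 FPKM or more, leaving out rows with clone or locus names, the lowest log2 folds were not all from these lists. The homeobox gene mkxb, on an unplaced scaffold, was at 296 FPKM in control and 1.62 FPKM in morphant, after 5.16 and 23.0 FPKM at 24 hpf. The PACAP receptor adcyap1r1a, on chromosome 2 (Zv9 51428576 to 51448473), was at 103 and 7.0 FPKM, with 2.89 and 2.37 FPKM at 24 hpf. The translation initiation subunit eif3hb was at 885 and 203 FPKM and the retinoic acid carrier crabp1a at 73.4 and 17.4 FPKM. The plasminogen receptor plgrkt, on an unplaced scaffold, was at 947 FPKM in control and 190 FPKM in morphant. Each of these 5 genes had its highest level of the 4 libraries in the control library at 48 hpf. Choosing genes by the lowest folds at 48 hpf and by a mean over the 4 libraries favours such a pattern.

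Among the highest log2 folds by the same rule, the lysosomal calcium channel mcoln1 was at 25.0 FPKM in control and 117 FPKM in morphant, and at 8.01 and 114 FPKM at 24 hpf. It was thus past 2-fold higher at both stages. The cathepsins ctssb.1 and ctsh, lysosomal proteases, were at 21.1 and 16.3 FPKM in control and at 115 and 46.1 FPKM in morphant. The guanylate binding protein gbp1, an interferon-induced GTPase in mammals, was at 5.09 and 17.8 FPKM. The collagenase mmp13a was at 5.37 and 27.3 FPKM. The row zgc:194101, chosen after its values were seen, was listed at 0 in both control libraries and stood at 20.6 FPKM in the morphant library at 48 hpf and at 12.7 FPKM in that at 24 hpf.

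The 24 hpf pair shares no library with the 48 hpf pair. Of the 222 genes higher at 48 hpf, 18 were also higher at 24 hpf, which is 8.11% of the 222 and 4.86% of the 370 higher at 24 hpf. Of the 438 genes lower at 48 hpf, 50 were lower at 24 hpf, which is 11.4% of the 438 and 22.1% of the 226. In opposite directions, 10 genes were higher at 48 hpf and lower at 24 hpf, which is 4.50% of the 222. A further 17 genes, 3.88% of the 438, were lower at 48 hpf and higher at 24 hpf. Over all 11958 genes, 3.09% were higher and 1.89% lower at 24 hpf. Across the 11958 genes, which are not independent replicates, the log2 folds had a Pearson r of 0.15 and a Spearman rho of 0.14.

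Last, the morphant level at 48 hpf was placed beside both control libraries. This reading uses the 48 hpf control library on both sides, so it describes positions only. A gene that rose in control can lie between only if its morphant fold at 48 hpf is below 0. A gene that fell can do so only if that fold is above 0. For lists mostly on that side, such as the crystallins with 24 below 0, lying between largely repeats those folds and adds no support. The floor is a mean over the 4 libraries, so genes low at 24 hpf can pass it through their 48 hpf levels, which favours rises. Of 44 crystallin rows in the files, 25 passed it, with medians of 2.05 FPKM in control at 24 hpf and 377 FPKM in control at 48 hpf. All 25 measured crystallins were past 2-fold higher in control at 48 hpf than in control at 24 hpf, and in 24 of them the morphant value at 48 hpf lay between the pair of control values. This held for 11 of 11 such retina genes, 31 of 34 such neuron genes, 6 of 10 other lens genes, 4 of 6 embryonic globins, 3 of 9 myeloid markers and 0 of 2 cytosolic ribosomal proteins. Over all genes it held for 1846 of 2505, which is 73.7%. Median rises from control at 24 hpf were 2.37 log2 units to control at 48 hpf and 1.46 to morphant at 48 hpf for those neuron genes, and 1.63 and 1.37 over all such genes. Of 10 inflammatory genes that were past 2-fold lower in control at 48 hpf than at 24 hpf, 8 had the morphant value in between, and so had 3 of 4 hatching gland genes and 3 of 4 myeloid markers, beside 792 of 1042 over all genes. Of 30 such cytosolic ribosomal proteins 1 had, their median fall from control at 24 hpf being -1.34 log2 units in control at 48 hpf and -2.11 in morphant.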

How the data were processed

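RNA of sorted Gata1+ cells was sequenced in 4 libraries, 1 per group, of which 2 were taken at 48 hpf. Per the submitters' processing notes the deposited values were made with TopHat and Cufflinks on the zebrafish build Zv9, with no versions named. The authors deposited FPKM per gene, 1 file per library, with no counts, so library depth is unknown and counting intervals cannot be given. Low values lie on steps of single fragments, and these place the morphant depth at 48 hpf at 0.70 or 0.35 of the control's, which could not be told apart. Precision is therefore lowest for genes near 1 FPKM. Per the labels, RNA was extracted with TRIzol; the selection of RNA before sequencing is not given.

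From the deposited FPKM, log2((FPKM + 1)/(FPKM + 1)) was computed for genes averaging 1 FPKM or more over the 4 libraries, with Python 3.11.15, numpy 2.4.6 and pandas 2.3.3. Past 2-fold counts as called. FPKM values are not counts and each group holds 1 library, so no test was run. MicroRNA, snRNA, ribosomal and RNase P RNA rows and replication-dependent histones were kept apart by name and gene type. Rows were matched to current symbols through the RefSeq gene table of GRCz12tu, used for names only, for 14135 of 14417 rows. Coordinates are those of the files. Sequences are not shown.

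The comparison and its 52 gene lists were chosen with earlier results of these data known, and 7 groupings are subsets or joins of these lists. Named genes are the FOXO genes, 5 red cell genes, each globin, the 15 highest and 15 lowest log2 folds among poly(A) genes averaging 10 FPKM or more, above 0 in both 48 hpf libraries and not listed under a clone, zgc, si: or LOC name, the 5 most abundant of each 48 hpf library, the 6 members farthest from 0 in each list along with its most abundant member, and family neighbours. Genes outside this rule are contrasts within a list or are said to be chosen after their values were seen. Pseudocounts, scalings, floors, thresholds and left-out rows were varied. Counting past 2-fold was tested on simulated data. Values of some genes are not reported here.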

Additional observations from a re-analysis of the deposited data

Results flagged for a closer look

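Of the named genes, 8 were past 2-fold in opposite directions at 48 and 24 hpf. With 1 library per group and stage, this difference was not tested. The hormone gene hamp2 had a log2 fold of 2.77 at 48 hpf and -1.51 at 24 hpf, and shares its locus with another row. The ribosomal protein rpl38 had -1.57 at 48 hpf and 1.16 at 24 hpf. The homeobox gene mkxb had -6.83 at 48 hpf and 1.96 at 24 hpf. The other 5 are replication-dependent histone rows, higher at 48 hpf and lower at 24 hpf: hist1h4l at 1.72 and -1.96, zgc:113983 (h3c13a) at 2.14 and -1.30, zgc:158629 (hist2h3c) at 2.21 and -1.20, zgc:173652 at 4.02 and -1.87, and zgc:195633 at 4.37 and -1.08.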

How the results depend on the processing

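No paired analysis was possible because each group holds 1 library and the labels give no replicate numbers. Counts of genes past 2-fold, 222 higher and 438 lower as reported, moved by more than 1.5 times under the next settings. Higher genes numbered 360 at a pseudocount of 0.1 FPKM. At a pseudocount of 5 FPKM there were 89 higher and 195 lower. Equal total FPKM gave 2008 and 131, and equal totals without ribosomal proteins and RNAs without poly(A) tails 830 and 203. Lower genes numbered 258 at a floor of 5 FPKM. Thresholds of 1.5-fold and 3-fold gave 1006 higher and 1350 lower, and 56 and 128. Within 1.5 times stayed median-ratio scaling, with 228 and 408. So did leaving out rows beside histone genes, with 211 higher, and leaving out loci under 1 kb, with 204 and 401; both settings were chosen after seeing the data.

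Medians of the 7 lists led with, taken less the all-gene median, kept their sign under the settings tried. The inflammatory median, 0.81 as reported, was 0.49 at a pseudocount of 5 FPKM, 0.53 with no floor and 0.49 at a floor of 5 FPKM. That of crystallins, -0.79, was -0.40 with no floor and -0.53 without rows sharing a locus, and that of embryonic globins, -1.40, was -0.84 without such rows. The median of the FOXO genes, -0.17, turned to 0.39 at a floor of 5 FPKM, which leaves fewer of its 5 genes. Of the named genes' values under other pseudocounts and scalings, 1616 stayed within 0.25 log2 and 159 moved further, and none past 2-fold changed sign. The cause of the other moves was not tested. With 1 library a side, no setting replaces a replicate, and the missing counts leave the precision of low values unknown.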

Other observations

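Other gene groups at 48 hpf gave few members past 2-fold. Of 36 epidermal genes, 2 were lower and none higher: the epidermal protein row zgc:174689 (aep1), on a shared locus, was at 524 FPKM in control and 55.4 FPKM in morphant, and the keratin row zgc:92533 (krt91) at 2050.3 and 951 FPKM. The most abundant keratin, krt4, was at 9312 and 10879 FPKM. Of 60 autophagy and lysosome genes, 2 were higher and 1 lower, the ubiquitin-like conjugation factor atg12 at 92.3 and 45.0 FPKM. The cholesterol regulator srebf2 was the 1 of 29 sterol and fatty acid synthesis genes past 2-fold, at 8.56 FPKM in control and 20.8 FPKM in morphant. The purine synthesis gene gart was the 1 of 26 pigment cell genes past 2-fold, at 21.8 and 48.7 FPKM. Proteasome subunits, tricarboxylic acid cycle enzymes and glycolysis genes had none past 2-fold over 47, 24 and 38 members, with medians of 0.03, 0.00 and -0.05, the last of which turns positive under both equal-total scalings.

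Rows at 0 were unevenly spread. Among poly(A) rows, 46 were listed at 0 in the morphant library and at 1 FPKM or more in control, and 11 the other way. At 10 FPKM or more the numbers were 6 and 2. The morphant depth at 48 hpf was placed above at 0.70 or 0.35 of the control's. The part of depth in these zeros was not tested. The row cd247, chosen after its values were seen and on a locus of 31 rows, was at 147 FPKM in control and listed at 0 in morphant, whereas at 24 hpf it was listed at 0 in control and at 57.2 FPKM in morphant.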
